A study of Mus musculus with 12 samples.

Results

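Erythroid transcripts, the messages of developing and mature red cells, were followed in RNA from liver macrophage preparations. A list of 36 genes was taken by name: the adult haemoglobin genes, genes for heme synthesis and iron supply, red cell surface antigens, membrane skeleton proteins, transcription and maturation regulators, and enzymes and transporters of red cells. Of these, 35 were found among the 25700 genes of the count table and 1, Ahsp, is not analysed here. All 35 passed the filter on low counts, but 21 of the 35 would have passed on the WT libraries alone, so 14 entered through the sph/sph libraries.

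The cells were non-parenchymal liver cells of mice enriched for macrophages with beads that bind F4/80, a macrophage surface protein. The groups were sph/sph mice given saline, WT littermates given saline, sph/sph mice given an agonistic antibody to CD40 and WT littermates given that antibody, with 3 libraries each. Sph/sph mice (against wt/wt in WT) carry an inherited mutation in every cell and have fragile red cells and haemolytic anaemia; CD40 is a receptor whose engagement activates macrophages. The antibody was given at 20 mg/kg into the abdominal cavity, with a time of 30 h in the labels, to animals described as male and 8 to 10 weeks old.

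Some libraries stood against their labels. The A library of each of the 4 groups had 0 counts of the Y-linked genes Ddx3y, Uty, Kdm5d and Eif2s3y, whereas the other 8 libraries had 2436 to 4055 counts of them. The headers of the table name the control genotype heterozygous where every label says wild type, and it is called WT here. Adgre1, the gene for F4/80, had 1101 to 2237 CPM (counts scaled to library size) in sph/sph libraries of both treatments and 1579 to 1942 CPM in WT saline libraries, but 39.8 to 173 CPM in WT anti-CD40 libraries. Clec4f, which marks Kupffer cells, the resident liver macrophages, had 2.41 to 7.53 CPM in WT anti-CD40 libraries. Depth ran from 14991250 to 18984067 counts per library.

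Red cells arise from precursors called erythroblasts, which grow and divide on the surface of macrophages, fill with haemoglobin, build a membrane skeleton of spectrin and ankyrin, and finally expel the nucleus. The reticulocyte that remains holds leftover messages, above all those of haemoglobin, and loses them as it matures. Erythroblasts are made in the bone marrow, and in anaemic mice also in the spleen and liver, while macrophages of liver and spleen clear damaged red cells.

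Erythroid transcripts were far more abundant in sph/sph than in WT preparations, under saline and under anti-CD40. Under saline 27 of the 35 genes rose in sph/sph libraries and 0 fell, where 1.6% of the 13844 genes tested rose, 0.433% fell and 2.04% were called in either direction. Under anti-CD40 30 of the 35 rose and 0 fell, where 11.5% of all genes tested rose and 6.19% fell. None of the 35 fell with DESeq2 or limma-voom either. These counts, and the library comparisons below, include genes that passed the filter only through the sph/sph libraries and could hardly have come out lower there. Among the genes called under saline they were Kel, Rhag, Cldn13, Slc4a1, Epb42, Tmod1, Klf1, Gata1, Trim58, Tspo2 and Ypel4, and under anti-CD40 also Rhd, Add2 and Car1. The other called genes would have passed on the WT libraries alone. The genes that rose in both treatments numbered 25; Car2 and Tmcc2 were called under saline and not under anti-CD40; Add2, Car1, Epb41, Epor and Rhd were called under anti-CD40 and not under saline; and Slc25a37, Tal1 and Tfr2 were called in neither. In 34 of 35 genes every sph/sph saline library lay above every WT saline library, and in 32 of 35 every sph/sph anti-CD40 library lay above every WT anti-CD40 library; 16.7% of all genes tested did so in each treatment. The median log2 fold of the 35 genes was 5.41 under saline and 5.38 under anti-CD40, beside 0.01 and 0.08 over all genes tested. These medians, too, include the genes that passed the filter only through the sph/sph libraries. Calls are edgeR quasi-likelihood tests at a Benjamini-Hochberg adjusted p under 0.05 over all genes tested.

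The saline count depended on the libraries and the method. It was 7 without WT saline B, 8 without WT saline C, 15 without sph/sph saline B and 1 without the 4 A libraries. With limma-voom it was 13. Calls over all genes dropped as well, from 282 to 73 without WT saline B and to 13 without the 4 A libraries. Whether single libraries carried the erythroid calls was not tested. The anti-CD40 count was 27 without the 4 A libraries. Fewer cells of a type and less RNA per cell cannot be told apart in such bulk libraries. Whether the transcripts lay inside macrophages, in cells bound to them or in free cells was not measured.

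**Figure D1:**
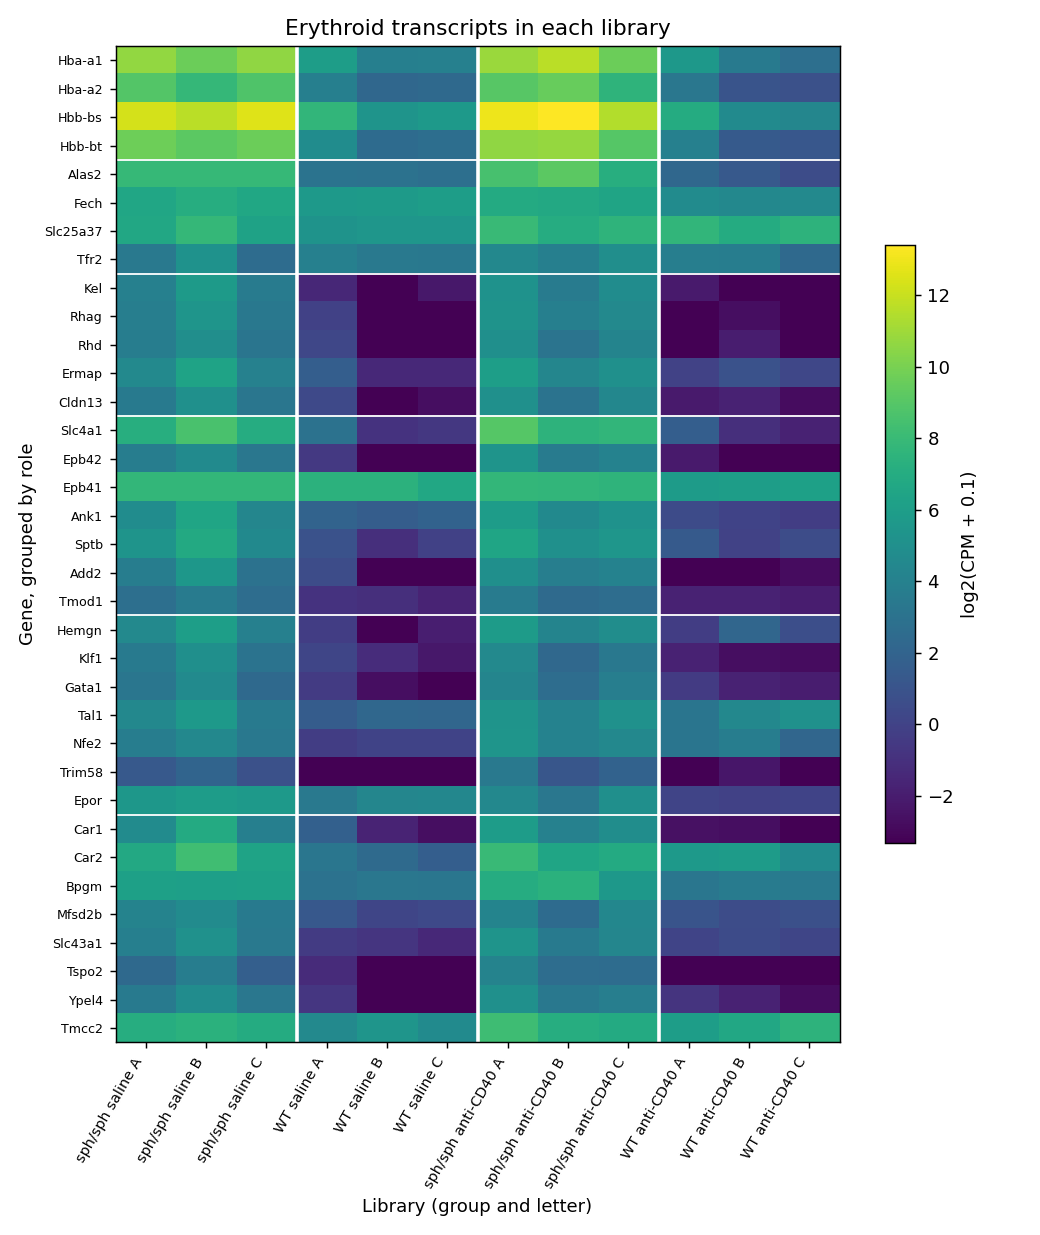
Level of each of the 35 erythroid genes, as log2(CPM + 0.1), in each of the 12 libraries (columns, grouped by genotype and treatment; rows ordered by role, lines between roles). Sph/sph columns are brighter than WT columns for nearly every gene, and Hbb-bs is the brightest row, with up to 10830 CPM in sph/sph anti-CD40 B.

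**Figure D2:**
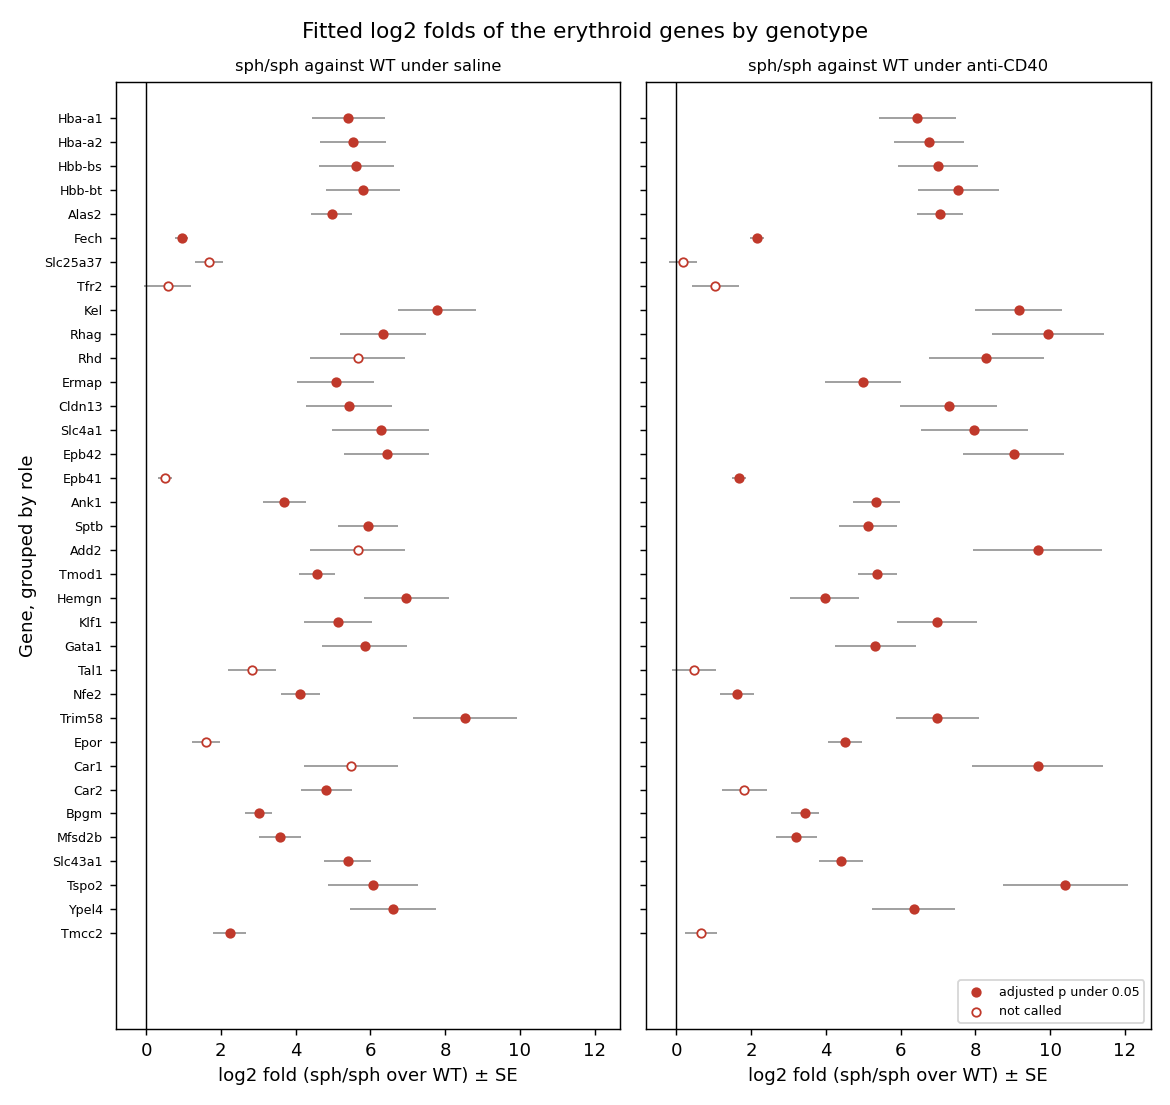
Fitted log2 fold of each erythroid gene, sph/sph over WT, under saline (left) and under anti-CD40 (right), with its standard error; filled points passed an adjusted p of 0.05. Of the 35 genes, 27 were called under saline and 30 under anti-CD40, all of them higher in sph/sph; folds against WT groups with at most 3 counts (Trim58 under saline; Kel, Rhag, Rhd, Epb42, Add2, Trim58, Car1 and Tspo2 under anti-CD40) depend on the prior count of the fit.

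The haemoglobin genes dominated. Mouse adult haemoglobin is made from 2 α-globin genes, Hba-a1 (chr11:32283511-32284465, plus strand) and Hba-a2 (chr11:32296489-32297298, plus strand), and 2 β-globin genes, Hbb-bs (chr7:103826534-103828096, minus strand) and Hbb-bt (chr7:103812524-103813996, minus strand; coordinates in GRCm38 here and throughout). Together they took 0.756%, 0.497% and 0.817% of all counts in sph/sph saline libraries A to C, against 0.0309%, 0.0068% and 0.0078% in WT saline libraries. Under anti-CD40 they took 1.12%, 1.49% and 0.481% in sph/sph libraries, against 0.0189%, 0.0047% and 0.0033% in WT libraries. The groups did not overlap in either treatment, and the A library was the highest of the WT libraries in both.

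Hbb-bs, the most abundant of the 35 genes in sph/sph saline libraries per kilobase of exon, had 5046, 3215 and 6219 CPM in sph/sph saline libraries A to C, against 202, 40.7 and 50.8 CPM in WT saline libraries. Its log2 fold was 5.62 (SE 1.00, adjusted p = 0.0209, edgeR). Under anti-CD40 Hbb-bs had 8052, 10830 and 2796 CPM in sph/sph libraries, against 125, 25.1 and 20.1 CPM in WT libraries, a log2 fold of 6.99 (SE 1.07, adjusted p = 0.00191, edgeR). The lowest sph/sph library thus lay above the highest WT library in both treatments. Hba-a1 had 1647, 812 and 1555 CPM in sph/sph saline libraries, against 64.3, 14.7 and 15.7 CPM in WT saline libraries, and 1861, 3204 and 788 CPM in sph/sph anti-CD40 libraries, against 48.7, 11.7 and 6.89 CPM in WT anti-CD40 libraries. Its log2 folds were 5.41 (SE 0.98, adjusted p = 0.0221, edgeR) under saline and 6.45 (SE 1.03, adjusted p = 0.00237, edgeR) under anti-CD40. Hba-a2 and Hbb-bt also rose, with log2 folds of 5.53 and 5.81 under saline and of 6.76 and 7.55 under anti-CD40. Each pair is nearly identical in sequence, so the split of reads within a pair is uncertain. Embryonic globins stayed near 0: Hba-x had 5, 8 and 7 counts in sph/sph saline libraries and 0 in every WT library, and Hbb-bh2 had 0 counts in all 12 libraries, which allows at most 3 counts.

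The summed level of the 4 haemoglobin genes was 7283 ± 2189 CPM in sph/sph saline and 150.9 ± 137.0 CPM in WT saline (SD, n = 3 each), 48.3 times as high in sph/sph. Under anti-CD40 it was 10930 ± 6183 CPM in sph/sph and 90.5 ± 94.4 CPM in WT, 121 times as high. The other 31 genes summed to 1879 ± 806 CPM in sph/sph saline and 350.7 ± 45 CPM in WT saline, 5.36 times as high in sph/sph. Under anti-CD40 they summed to 2181 ± 739 CPM in sph/sph and 487.5 ± 53.3 CPM in WT, 4.47 times as high. The wider gap of the haemoglobin sum was thus present in both treatments, and the ratios were not tested. The sum of the 31 weighs genes with high WT levels, such as Epb41 and Fech, with means of 149.1 and 56.6 CPM in WT saline. Gene by gene, the haemoglobin log2 folds under saline lay at or slightly above the median of the 35 genes, 5.41. Kel (7.78) and Hemgn (6.96) had larger ones. Kel is among the genes that passed the filter only through the sph/sph libraries, and these genes enter the median too. Under anti-CD40 the haemoglobin log2 folds lay above the median, 5.38. Without the A libraries the haemoglobin sums were 4825 to 9020 CPM in sph/sph saline, against 65.6 to 78.2 CPM in WT saline, 96.3 times as high by the means. Under anti-CD40 they were then 4276 to 16500 CPM in sph/sph, against 30.9 to 41.3 CPM in WT, 288 times as high.

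Genes that feed haemoglobin with heme differed among themselves. Alas2 (chrX:150547375-150570638), the erythroid form of the enzyme that starts heme synthesis, had 239, 238 and 235 CPM in sph/sph saline libraries, against 8.10, 7.86 and 6.87 CPM in WT saline libraries. Its log2 fold was 4.96 (SE 0.55, adjusted p = 0.00324, edgeR); among the sph/sph saline libraries it differed by 1.02 times between highest and lowest. Under anti-CD40 Alas2 had 377, 594 and 144 CPM in sph/sph libraries, against 4.66, 2.47 and 1.38 CPM in WT libraries, a log2 fold of 7.05 (SE 0.61, adjusted p = 8.82e-05, edgeR). The spread among sph/sph anti-CD40 libraries, 4.11 times, was wider than under saline. Alas2 overlaps Apex2 on the other strand, and whether reads were counted by strand is not given in the sources used here.

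Fech, which inserts iron in the last step of heme synthesis, rose by a log2 fold of 0.95 under saline (adjusted p = 0.0225, edgeR) and of 2.16 under anti-CD40 (adjusted p = 7.17e-05, edgeR). Slc25a37 (chr14:69241848-69285112), mitoferrin 1, which carries iron into mitochondria, had 105, 227 and 78.9 CPM in sph/sph saline libraries, against 38.3, 44.8 and 44.8 CPM in WT saline libraries. Under anti-CD40 it had 257, 132 and 186 CPM in sph/sph libraries, against 204, 127 and 180 CPM in WT libraries. The Slc25a37 groups lay apart under saline without passing the test (log2 fold 1.68, adjusted p = 0.0565, edgeR) and overlapped under anti-CD40 (log2 fold 0.17, adjusted p = 0.795, edgeR). Tfr2, an iron sensor and partner of the erythropoietin receptor, had 5.88 to 37.3 CPM in sph/sph saline, against 10.1 to 15.3 CPM in WT saline, and was not called (adjusted p = 0.767, edgeR). Of the 9 enzymes of heme synthesis, Alas2 and Fech among them, 3 rose under saline and 7 under anti-CD40 in sph/sph, and 0 fell.

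All 5 genes for surface antigens had higher levels in every sph/sph library than in every WT library of the same treatment; 4 of 5 rose under saline and 5 of 5 under anti-CD40. Ermap (chr4:119175457-119190011), which carries the Scianna blood group in humans, had 23.7, 82.5 and 16.1 CPM in sph/sph saline libraries, against 3.15, 0.275 and 0.277 CPM in WT saline libraries. Under anti-CD40 Ermap had 66.1, 20.1 and 33.3 CPM in sph/sph libraries, against 0.864, 1.78 and 1.08 CPM in WT libraries. Its log2 folds were 5.07 (SE 1.03, adjusted p = 0.0348, edgeR) under saline and 4.98 (SE 1.02, adjusted p = 0.00883, edgeR) under anti-CD40. Kel (chr6:41686330-41704339), the Kell blood group peptidase, had 15.2, 54.6 and 12.3 CPM in sph/sph saline libraries, against 0.257, 0 and 0.111 CPM in WT saline libraries, a log2 fold of 7.78 (SE 1.04, adjusted p = 0.00573, edgeR). Under anti-CD40 Kel had 36.5, 12.3 and 28.1 CPM in sph/sph libraries, against 0.133, 0 and 0 CPM in WT libraries; the ratio of pooled counts, scaled by the groups' total library sizes, was 710, with a 95% counting interval of 196 to 5867. The surface antigen transcripts were thus at or near 0 in WT preparations.

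Rhag and Rhd, of the Rhesus complex, and Cldn13, a claudin, gave the same picture. Rhag had 10.1 to 41.4 CPM in sph/sph saline, against 0 to 0.835 CPM in WT saline, and rose (log2 fold 6.35, adjusted p = 0.0225, edgeR). Rhd had 8.79 to 31.1 CPM in sph/sph saline, against 0 to 1.09 CPM in WT saline, and missed the threshold (log2 fold 5.66, adjusted p = 0.0525, edgeR). The non-zero WT saline values of Rhag and Rhd came from library A alone. Under anti-CD40 the ratio of pooled counts was 1386 for Rhag (95% counting interval 248 to 54770) and 356 for Rhd (95% counting interval 121 to 1729). Cldn13 had log2 folds of 5.44 and 7.28 under saline and anti-CD40.

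Genes of the membrane skeleton rose in 5 of 7 cases under saline and in 7 of 7 under anti-CD40. Slc4a1 (chr11:102348824-102366203), the anion exchanger band 3 that anchors the skeleton, had 145, 391 and 132 CPM in sph/sph saline libraries, against 7.71, 0.440 and 0.554 CPM in WT saline libraries. Its log2 fold was 6.28 (SE 1.302, adjusted p = 0.0378, edgeR). Under anti-CD40 Slc4a1 had 503, 182 and 202 CPM in sph/sph libraries, against 3.13, 0.367 and 0.197 CPM in WT libraries, a log2 fold of 7.97 (SE 1.42, adjusted p = 0.0044, edgeR). As with haemoglobin, WT library A was the highest WT library in both treatments.

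Epb41 (chr4:131923413-132075321), protein 4.1, behaved otherwise. It had 213, 213 and 214 CPM in sph/sph saline libraries, against 174, 171 and 103 CPM in WT saline libraries, and was not called there (log2 fold 0.52, adjusted p = 0.255, edgeR). Under anti-CD40 it had 215, 210 and 190 CPM in sph/sph libraries, against 57.8, 64.7 and 71.0 CPM in WT libraries, a log2 fold of 1.67 (SE 0.19, adjusted p = 0.000433, edgeR). Sph/sph levels of Epb41 thus overlapped between the treatments and WT levels did not. The remaining skeleton genes had log2 folds under saline of 3.70 for Ank1 (ankyrin), 4.57 for Tmod1 (tropomodulin), 5.94 for Sptb (β-spectrin) and 6.44 for Epb42 (protein 4.2), all called; Add2 (β-adducin), at 7.80 to 45.3 CPM in sph/sph saline, against 0 to 1.35 CPM in WT saline, was not (adjusted p = 0.0525, edgeR). Sptb, Tmod1 and Epb41 overlap genes on the other strand, and Add2, Kel and Slc25a37 overlap predicted genes on their own strand, with whose reads theirs may be mixed.

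Of the 7 regulators, which comprise nuclear factors, a ubiquitin ligase and a receptor, 5 rose under saline and 6 under anti-CD40. Klf1 (chr8:84901928-84905291), the factor that switches on adult β-globin, had 11.1, 32.0 and 8.26 CPM in sph/sph saline libraries, against 1.03, 0.330 and 0.111 CPM in WT saline libraries, a log2 fold of 5.14 (SE 0.92, adjusted p = 0.0214, edgeR). Under anti-CD40 Klf1 had 23.4, 4.96 and 10.2 CPM in sph/sph libraries, against 0.200, 0.0525 and 0.0492 CPM in WT libraries, a log2 fold of 6.98 (SE 1.07, adjusted p = 0.00196, edgeR). The lowest sph/sph value was several times the highest WT value in each treatment. Gata1 (chrX:7959260-7978071), the master factor of erythroid and megakaryocyte development, had 9.25, 25.1 and 5.06 CPM in sph/sph saline libraries, against 0.643, 0.0549 and 0 CPM in WT saline libraries (log2 fold 5.85, adjusted p = 0.0291, edgeR). Gata1 under anti-CD40 had 19.8, 6.21 and 14.2 CPM in sph/sph libraries, against 0.665, 0.210 and 0.148 CPM in WT libraries (log2 fold 5.32, adjusted p = 0.00883, edgeR). Neither gene's groups overlapped.

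Hemgn, hemogen, a nuclear protein downstream of Gata1, had 23.5, 67.4 and 15.6 CPM in sph/sph saline libraries, against 0.707, 0 and 0.166 CPM in WT saline libraries (log2 fold 6.96, adjusted p = 0.0134, edgeR). Under anti-CD40 Hemgn had 58.8, 18.6 and 29.3 CPM in sph/sph libraries, against 0.731, 4.51 and 1.53 CPM in WT libraries (log2 fold 3.96, adjusted p = 0.0162, edgeR). The difference between its 2 log2 folds missed the threshold (interaction -2.998, adjusted p = 0.264, edgeR). Trim58, a ubiquitin ligase that removes dynein before the nucleus is expelled, had 2.46, 4.10 and 1.69 CPM in sph/sph saline libraries, against 0 counts in the 3 WT saline libraries, so the sph/sph level was at least 47.5-fold higher, against a floor of 3 counts over the group. Under anti-CD40 Trim58 had 10.8, 2.15 and 3.72 CPM in sph/sph libraries, against 0, 0.105 and 0 CPM in WT libraries, a ratio of pooled counts of 149 with a 95% counting interval of 40.7 to 1233. This late-stage gene was all but absent from WT preparations.

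Tal1, Nfe2 and Epor each had a WT group that reached several CPM in every library. Tal1, a partner of Gata1 that stem cells and endothelium also use, had 21.9, 52.3 and 11.9 CPM in sph/sph saline libraries, against 2.76, 4.78 and 4.43 CPM in WT saline libraries (log2 fold 2.84, adjusted p = 0.0554, edgeR). Under anti-CD40 Tal1 had 41.1, 16.6 and 35.5 CPM in sph/sph libraries, against 8.78, 22.7 and 35.8 CPM in WT libraries, which overlap (log2 fold 0.47, adjusted p = 0.639, edgeR). Tal1 was therefore called in neither treatment. Nfe2, a globin gene activator also active in megakaryocytes, had 13.3, 22.1 and 10.1 CPM in sph/sph saline libraries, against 0.707, 0.934 and 0.942 CPM in WT saline libraries (log2 fold 4.13, adjusted p = 0.00507, edgeR). Under anti-CD40 Nfe2 had 42.8, 17.1 and 21.8 CPM in sph/sph libraries, against 8.98, 13.2 and 4.53 CPM in WT libraries (log2 fold 1.61, adjusted p = 0.0358, edgeR). Nfe2 rose in both treatments, by less under anti-CD40; the difference between its 2 log2 folds missed the threshold (interaction -2.52, adjusted p = 0.0648, edgeR). Epor, the receptor for erythropoietin, had 46.2, 60.7 and 51.7 CPM in sph/sph saline libraries, against 10.8, 20.0 and 21.4 CPM in WT saline libraries (log2 fold 1.60, adjusted p = 0.0669, edgeR). Under anti-CD40 Epor had 22.5, 9.62 and 31.8 CPM in sph/sph libraries, against 0.997, 0.840 and 0.936 CPM in WT libraries (log2 fold 4.52, adjusted p = 0.00019, edgeR). Its groups lay apart in both treatments.

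**Figure D3:**
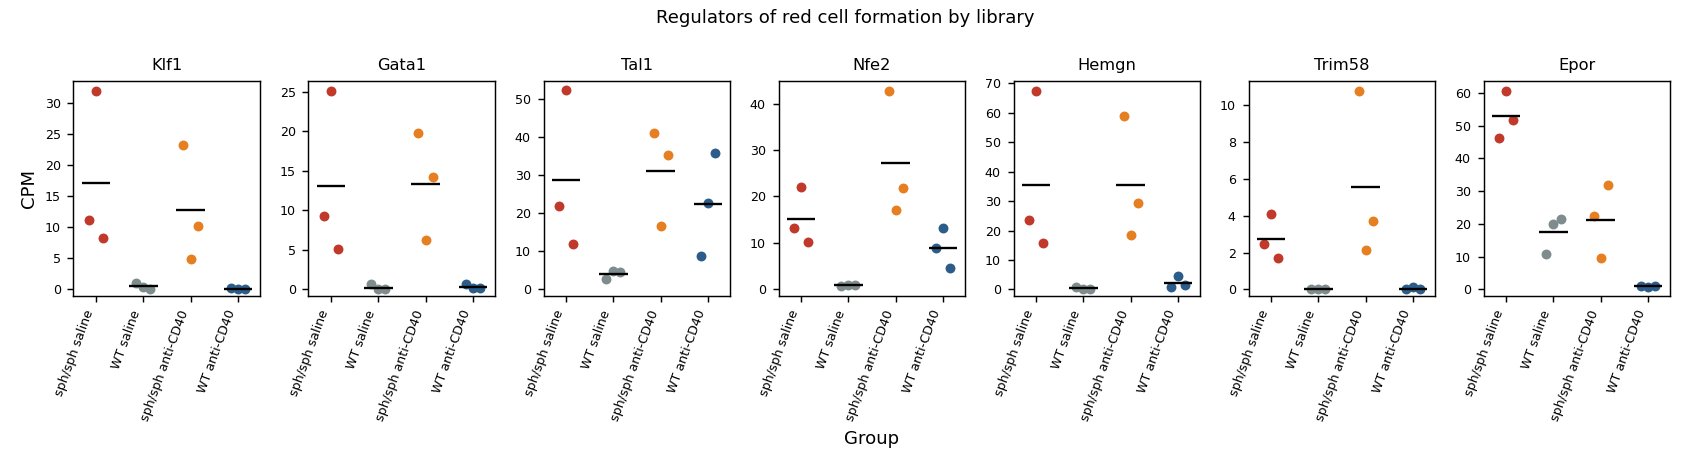
CPM of the 7 regulators in each library (points) with the mean of each group (line), each panel on its own linear axis that starts near 0. Klf1 and Gata1 do not exceed 1.03 CPM in any WT library and Hemgn reaches 4.51 CPM in WT anti-CD40, whereas Tal1 reaches 35.8 CPM and Nfe2 13.2 CPM in WT anti-CD40 libraries and Epor 21.4 CPM in WT saline libraries.

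Gata1 and Tal1 bind together at erythroid genes, at a CTG, part of an E-box, that precedes GATAA by a fixed distance, and upstream sequences of genes that rose are shown with these letters. RefSeq windows of GRCm38.p6 were at hand for 27 of the 35 genes. In the 250 bases before the start, on either strand, CTGNNNNNNNNGATAA or CTGNNNNNNNNNGATAA was found in 7 of the 27 genes (25.9%), which are Epb42, Hemgn, Ermap, Tfr2, Kel, Klf1 and Rhag, and in 1.47% of all 27025 genes. AGATAA, the GATA letters alone, was found in 8 of the 27 (29.6%), against 11.4% of all genes; CCNCNCCC, which Klf1 and related factors bind, in 18 (66.7%), against 48.5%; and CCAAT in 16 (59.3%), against 37.5%. A match of CCNCNCCC can overlap another, and AGATAA can lie within the longer motif. Stretches outside annotated exons are given on the strand of the gene with the joint motif in capitals, or AGATAA in Alas2 and CCAAT in Hba-a2; other matches, such as CCAAT in Klf1, stay in lower case, and TTATC is GATAA read on the other strand.
Epb42 chr2:121037073-121037122, minus strand: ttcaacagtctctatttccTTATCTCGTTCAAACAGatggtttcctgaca
Ermap chr4:119190030-119190079, minus strand: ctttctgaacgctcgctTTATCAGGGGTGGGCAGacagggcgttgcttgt
Kel chr6:41704360-41704409, minus strand: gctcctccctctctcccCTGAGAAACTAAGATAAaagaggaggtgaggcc
Klf1 chr8:84901878-84901927, plus strand: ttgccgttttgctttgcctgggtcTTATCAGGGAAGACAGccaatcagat
Alas2 chrX:150547309-150547358, plus strand: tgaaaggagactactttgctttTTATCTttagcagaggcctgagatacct
Hba-a2 chr11:32296378-32296427, plus strand: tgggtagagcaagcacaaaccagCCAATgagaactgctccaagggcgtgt
In Ermap and Kel the joint motif spans the positions -67 to -51 from the RefSeq start, and in Klf1 -80 to -65. Epb42, Ermap, Kel and Klf1, like Hemgn and Rhag, rose under saline and under anti-CD40, and Tfr2, which also holds the joint motif, was called in neither. Alas2, with AGATAA on the other strand, and Hba-a2, with CCAAT, lack the joint motif in this window and rose as well. A match describes the letters and shows no binding.

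Among the 8 enzymes, transporters and other genes, 7 rose under saline and 6 under anti-CD40. Tmcc2, a gene for a transmembrane coiled-coil protein, had 137, 164 and 126 CPM in sph/sph saline libraries, against 23.8, 41.9 and 24.99 CPM in WT saline libraries (log2 fold 2.23, adjusted p = 0.0346, edgeR). Under anti-CD40 Tmcc2 had 299.6, 139 and 117 CPM in sph/sph libraries, against 64.6, 104 and 183 CPM in WT libraries, which overlap (log2 fold 0.66, adjusted p = 0.333, edgeR). Its WT level was higher under anti-CD40 than under saline. Car2 (chr3:14886273-14900770), a carbonic anhydrase of red cells and other cells, had 107, 308 and 84.5 CPM in sph/sph saline libraries, against 9.19, 5.33 and 3.16 CPM in WT saline libraries (log2 fold 4.82, adjusted p = 0.00681, edgeR). Under anti-CD40 Car2 had 254, 89.8 and 121 CPM in sph/sph libraries, against 49.6, 56.6 and 25.8 CPM in WT libraries, apart but not called (log2 fold 1.82, adjusted p = 0.0616, edgeR). Car1, a red cell carbonic anhydrase, had 14.6 to 121 CPM in sph/sph saline, against 0.0554 to 3.41 CPM in WT saline, and was not called there (adjusted p = 0.0572, edgeR); under anti-CD40 the ratio of pooled counts was 974 (95% counting interval 269 to 8049).

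Bpgm, which makes 2,3-bisphosphoglycerate and so lowers the oxygen affinity of haemoglobin, had 68.5 to 74.0 CPM in sph/sph saline, against 7.65 to 9.67 CPM in WT saline, a log2 fold of 3.01 (SE 0.37, adjusted p = 0.00459, edgeR). The highest of the sph/sph saline libraries was 1.08 times the lowest. Slc43a1, an amino acid transporter, rose by log2 folds of 5.39 and 4.41 under saline and anti-CD40, and Mfsd2b, which exports sphingosine 1-phosphate from red cells, by 3.59 and 3.20. Tspo2, an erythroid relative of the translocator protein, had 3.26 to 13.2 CPM in sph/sph saline, against 0 to 0.321 CPM in WT saline (adjusted p = 0.0465, edgeR), and against 0 counts in WT anti-CD40 libraries its sph/sph level was at least 177-fold higher (floor of 3 counts over the group). Ypel4, of the yippee-like family, had log2 folds of 6.61 and 6.35.

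Per kilobase of exon, mean levels in sph/sph saline ran from 6285 CPM per kilobase for Hbb-bs through 1647 for Hba-a1, 1051 for Hbb-bt and 571 for Hba-a2 to 98.8 for Alas2, 68.8 for Car2 and 45.5 for Slc4a1. Klf1 stood at 11.2 CPM per kilobase. The SD was 1972 CPM per kilobase for Hbb-bs, 50.9 for Car2 and 29.9 for Slc4a1, so the means of Car2 and Slc4a1 lie closer than these SDs, though Car2 was higher per kilobase in 3 of 3 libraries. Hba-a1 (SD 564) was higher than Hbb-bt (SD 207) in 3 of 3 libraries as well.

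Anti-CD40 left the erythroid transcripts of sph/sph mice without a called change. Of the 35 genes 0 were called for anti-CD40 against saline in sph/sph with edgeR, where 0.78% of all genes tested were called and 0.202% fell; at an unadjusted p under 0.05 there was 1, Epor, beside 21.0% of all genes tested. DESeq2 called 1 of the 35, Epor, lower (log2 fold -1.35), and limma-voom 0. The sph/sph anti-CD40 C library held 2293 CPM of B cell and plasma cell genes, against 148.8 and 52.96 CPM in A and B. Without it edgeR called 2, Epor lower (log2 fold -1.73) and Bpgm higher (log2 fold 1.04). All 35 genes summed to 13110 ± 6482 CPM in sph/sph anti-CD40 and 9163 ± 1394 CPM in sph/sph saline, a difference smaller than the spread. Hbb-bs had an anti-CD40 log2 fold of 0.58 (SE 0.82) in sph/sph and Klf1 one of -0.42 (SE 0.74); with SEs of this size a change of 2-fold was not detectable.

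In WT mice anti-CD40 changed 11 of the 35 genes. Slc25a37, Hemgn, Tal1, Nfe2, Car2 and Tmcc2 rose, 6 of 35, and Alas2, Fech, Epb41, Ank1 and Epor fell, 5 of 35; among all genes tested 19.4% rose, 19.7% fell and 39.2% were called, so the members' shares are not above the background. At an unadjusted p under 0.05 there were 12 of 35 members, beside 49.0% of all genes tested, and 6 of 35 were lower in every WT anti-CD40 library, beside 28.0%. Nfe2 had 8.98, 13.2 and 4.53 CPM in WT anti-CD40 libraries, against 0.707, 0.934 and 0.942 CPM in WT saline libraries, a log2 fold of 3.36 (SE 0.51, adjusted p = 0.000847, edgeR). Epor had 0.997, 0.840 and 0.936 CPM in WT anti-CD40 libraries, against 10.8, 20.0 and 21.4 CPM in WT saline libraries, a log2 fold of -4.23 (SE 0.45, adjusted p = 0.000117, edgeR). Markers of other cells moved in the same comparison. The summed level of 17 Kupffer cell and macrophage genes was 8117 to 14260 CPM in WT anti-CD40, against 55520 to 64900 CPM in WT saline, and 15 of the 17 fell. Neutrophil genes summed to 369 to 1128 CPM in WT anti-CD40, against 157 to 204 CPM in WT saline, and T and NK cell genes to 277 to 2357 CPM, against 17.5 to 28.9 CPM. Sinusoidal endothelium genes summed to 4264, 6158 and 10200 CPM in WT anti-CD40 A to C, against 3079 to 6173 CPM in WT saline, and 2 of 14 rose. Tal1 and Tmcc2 were likewise lowest in WT anti-CD40 A and highest in C. Stem and early progenitor genes, a list of 14, summed to 668 to 1383 CPM, against 261 to 405 CPM, but without Procr, an endothelial and stem cell receptor, to 203.6 to 478.4 CPM, against 227.7 to 368.9 CPM. Of that list 3 rose and 1, Csf2rb2, fell; Gata2, a factor of such progenitors and of mast cells, rose (log2 fold 3.40, adjusted p = 0.0175, edgeR). Their part in the result was not tested. The haemoglobin genes were not called in WT: Hbb-bs had an anti-CD40 log2 fold of -0.79 (SE 0.83, adjusted p = 0.47, edgeR).

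The response to anti-CD40 differed by genotype for 3 of the 35 genes, each positive (response in sph/sph minus response in WT), where 3.18% of all genes tested were positive and 4.3% were called. They were Epor (2.92, SE 0.57, adjusted p = 0.019), Fech (1.21, SE 0.25, adjusted p = 0.0233) and Epb41 (1.15, SE 0.27, adjusted p = 0.0393; edgeR). All 3 fell in WT and were not called in sph/sph. Fech had 26.5, 22.04 and 22.9 CPM in WT anti-CD40 libraries, against 52.0, 55.5 and 62.3 CPM in WT saline libraries, and 121, 109 and 88.1 CPM in sph/sph anti-CD40 libraries, against 95.2, 136 and 97.6 CPM in sph/sph saline libraries. The Kupffer cell and macrophage genes moved the same way: their sum was 36990 to 62160 CPM in sph/sph anti-CD40, against 57070 to 82240 CPM in sph/sph saline, and 11 of 17 had a positive interaction. Their part in the result was not tested.

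Within the sph/sph groups a large set of erythroid genes shared a library order, and a small set, the haemoglobin genes among them, had another. In 25 of 35 genes (71.4%) library B was the highest of sph/sph saline and library A the highest of sph/sph anti-CD40, an order seen in 10.2% of all genes tested; 22 of the 25 were also lowest in sph/sph anti-CD40 B. Another 6 genes, Hba-a1, Hba-a2, Hbb-bs, Hbb-bt, Alas2 and Bpgm, were not highest in sph/sph saline B and were highest in sph/sph anti-CD40 B. Of all genes tested 18.7% had that order, so 6 of 35 is not above the background. Alas2 and Bpgm were nearly level under saline, with B at 1.005 and 0.926 times the mean of A and C. For Klf1 saline library B was 3.30 times the mean of A and C, and for Kel 3.98 times; for Hba-a1 it was 0.507 times and for Hbb-bs 0.571 times. For Klf1 anti-CD40 library A was 4.71 times B, and for Hba-a1 0.581 times. The first order held for 6 of 7 regulators (not Epor), 5 of 5 surface antigens, 6 of 7 skeleton genes (not Epb41) and 0 of 4 haemoglobin genes. Markers of other cells also differed between these libraries: hepatocyte genes summed to 4138, 11090 and 3841 CPM in sph/sph saline A to C and to 3234, 3150 and 6219 CPM in sph/sph anti-CD40, and B cell and plasma cell genes to 54.6, 119 and 57.4 CPM in sph/sph saline. Their part in the result was not tested. The sets were formed after these values were seen and carry no test.

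The ratio of summed haemoglobin to the other 31 genes rests on the same values and restates this division. It was 5.32, 1.72 and 6.80 in sph/sph saline libraries A to C, against 0.825, 0.173 and 0.262 in WT saline libraries. Under anti-CD40 it was 3.98, 8.61 and 2.66 in sph/sph libraries, against 0.431, 0.0915 and 0.0563 in WT libraries. Counts of Hbb-bs per count of Slc4a1 were 34.9, 8.22 and 47.2 in sph/sph saline libraries, while counts of Klf1 per count of Slc4a1 were 0.0768, 0.0818 and 0.0627 there. The Klf1 ratio thus moved far less between these libraries than the Hbb-bs ratio did. Klf1 and Slc4a1 share the first library order and Hbb-bs does not, so this follows from the orders and is no separate result. In sph/sph anti-CD40 libraries the Klf1 ratio was 0.0464, 0.0272 and 0.0505 and the Hbb-bs ratio 16.0, 59.5 and 13.8. The share of Hbb-bt in β-globin counts, 14.2%, 15.1% and 11.5% in sph/sph saline libraries, also moved less than the Hbb-bs ratio did there. In WT saline libraries counts of Hbb-bs per count of Slc4a1 were 26.2, 92.6 and 91.6, on 120, 8 and 10 counts of Slc4a1.

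**Figure D4:**
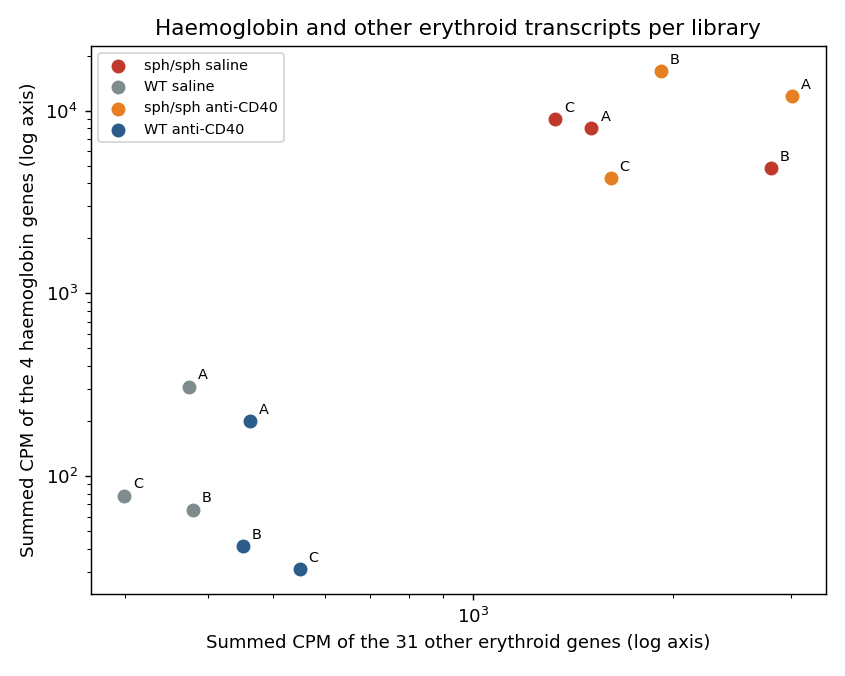
Summed CPM of the 4 haemoglobin genes (vertical, log axis) against that of the 31 other erythroid genes (horizontal, log axis); each point is a library, coloured by group and lettered. Sph/sph libraries lie above and to the right of WT libraries, and sph/sph saline B and anti-CD40 C have less haemoglobin per unit of other erythroid transcripts (ratios 1.72 and 2.66) than sph/sph anti-CD40 B (8.61).

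**Figure D5:**
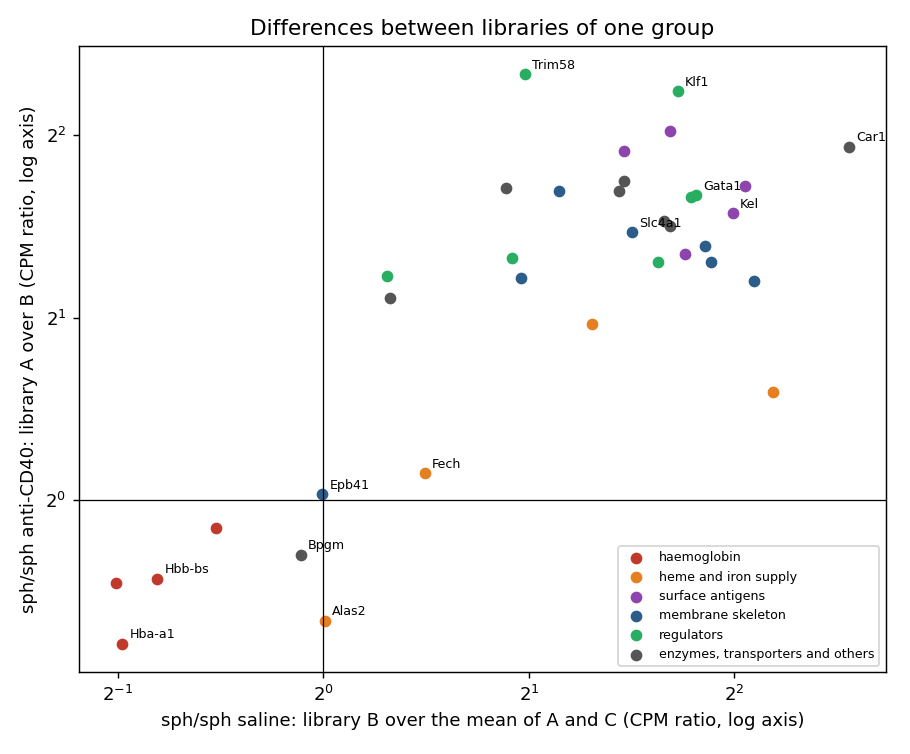
For each erythroid gene, the level in sph/sph saline B over the mean of A and C (horizontal) against the level in sph/sph anti-CD40 A over B (vertical), both as CPM ratios on log axes and coloured by role. Most genes lie above and right of 1, Klf1 at 3.30 and 4.71, whereas the haemoglobin genes lie below and left of 1, Hba-a1 at 0.507 and 0.581.

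The same orders were looked for in other erythroid genes. In a further list of 35 erythroid genes, 19 were highest in sph/sph saline B and anti-CD40 A, beside 10.2% of all genes tested. The order of haemoglobin was taken by 4, among them Stom, Bnip3l and Hbq1a. Since 18.7% of all genes tested had that order, 4 of 35 is not above the background. The other 12 took neither. Of the 34 that were tested, 8 rose under saline and 20 under anti-CD40 in sph/sph, and 0 fell. Among all genes tested 1.6% and 11.5% rose. Slc38a5, an amino acid transporter, had a log2 fold of 10.13 under saline (adjusted p = 0.00912, edgeR) and of 7.97 under anti-CD40 (adjusted p = 0.00259, edgeR).

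Summed cell cycle genes were highest in sph/sph saline B and sph/sph anti-CD40 A, which were also highest for Klf1 and Gata1. Mki67, a proliferation marker, had 75.6, 209 and 58.8 CPM in sph/sph saline libraries, against 64.5, 46.0 and 113 CPM in WT saline libraries, and was not called (log2 fold 0.62, adjusted p = 0.708, edgeR). Under anti-CD40 Mki67 had 279.7, 126 and 136 CPM in sph/sph libraries, against 89.4, 213 and 136 CPM in WT libraries (log2 fold 0.31, adjusted p = 0.746, edgeR). The 30 cell cycle genes summed to 854.5, 1613 and 799 CPM in sph/sph saline libraries, against 718.2 to 1246 CPM in WT saline, and to 2906, 1558 and 1223 CPM in sph/sph anti-CD40 libraries, against 877.5 to 2188 CPM in WT anti-CD40. Of these 30, 0 were called under saline with edgeR, and 2, Tk1 and Kif23, rose under anti-CD40. Since 11.5% of all genes tested rose there, 2 of 30 is not above the background. Both fell with anti-CD40 in WT, Tk1 from a mean of 82.83 to 21.75 CPM and Kif23 from 76.84 to 16.55 CPM. Their sph/sph anti-CD40 means were 86.33 and 54.55 CPM. The part of the cell cycle genes in the library order was not tested. The progenitor genes without Procr took that order under saline only. They summed to 210, 241 and 173 CPM in sph/sph saline libraries and to 170, 220 and 295 CPM in sph/sph anti-CD40 libraries. Kit, a receptor of early progenitors and mast cells, had 13.6, 33.3 and 2.27 CPM in sph/sph saline libraries and 4.28, 5.99 and 26.9 CPM in sph/sph anti-CD40 libraries. Kit fell in sph/sph against WT under anti-CD40 (log2 fold -3.48, adjusted p = 0.0464, edgeR), where WT libraries had 43.02, 137 and 237 CPM. Sinusoidal endothelium genes had the library order of Kit, with sums of 3492, 4044 and 1795 CPM in sph/sph saline and 1319, 2013 and 4059 CPM in sph/sph anti-CD40. Their part in the Kit values was not tested.

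Of 18 genes of macrophages that host erythroblasts or recycle iron, 3 rose under saline and 12 under anti-CD40 in sph/sph, and 0 fell. Of all genes tested 1.6% and 11.5% rose. The 17 Kupffer cell and macrophage genes, which share Nr1h3 and Slc40a1 with this list, moved alike under anti-CD40, where 15 rose in sph/sph. In WT 13 of the 18 fell with anti-CD40, beside 15 of the 17 Kupffer cell and macrophage genes and 19.7% of all genes tested. The sum of the 18 was 3512 to 6697 CPM in WT anti-CD40, against 17840 to 21900 CPM in WT saline. Cd163, the scavenger receptor for haemoglobin bound to haptoglobin, had 412, 682 and 748 CPM in sph/sph saline libraries, against 1891, 2283 and 3122 CPM in WT saline libraries, apart but not called. Hmox1, heme oxygenase, which breaks heme down, had 11530, 10340 and 10950 CPM in sph/sph saline libraries, against 1969, 1416 and 979 CPM in WT saline libraries (log2 fold 2.91, adjusted p = 0.00608, edgeR). Vcam1, an adhesion molecule that binds erythroblasts, had 3931, 2358 and 4600 CPM in sph/sph saline libraries, against 814, 969 and 969 CPM in WT saline libraries (log2 fold 1.98, adjusted p = 0.00967, edgeR). In both, the sph/sph and WT saline libraries did not overlap. Hmox1 and Vcam1 were lowest, not highest, in sph/sph saline B.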

How the data were processed

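Read counts per gene were used as deposited by the authors, 1 column per library, whole numbers that differ in total between libraries. The submitters' processing notes list GRCm38.p5, featureCounts, STAR 2.7.0e and SAMtools 1.9, and per the labels' protocols the TruSeq kit was a stranded one. How strand and multiply mapped reads were handled is not given in the sources used here. Letters A to C follow column order and pair nothing; the A libraries of both genotypes share an identification number in each treatment, of unstated meaning.

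The members and lists were chosen with earlier results of these data known. All 35 members could be named; in each role the 2 with the highest mean CPM and all regulators are given by library, and from other lists the called genes with the largest folds, at most 4 a list and comparison, plus a few fixed markers; Hba-x, Hbb-bh2 and genes listed for their library order were named after their values were seen. Genes were filtered by group (filterByExpr), scaled by TMM and fitted with edgeR 4.0.16 (R 4.3.3, robust quasi-likelihood, all 12 libraries, 1 mean per group); the common biological coefficient of variation was 0.382. SEs are the log2 fold over the square root of F. CPM use TMM-scaled totals. The fit was checked on simulated counts. Alternatives were DESeq2 1.42.0, limma-voom (limma 3.58.1), other scalings, no filter, only the compared groups, haemoglobin left out, a sex term and single libraries left out; the fit without the 4 A libraries was added after seeing the data. Floors (3 counts over a group) and 95% Clopper-Pearson intervals cover counting error only. P-values measure the spread between mice within groups of 3, estimated over all 4 groups and with information shared across genes. Gene positions follow GENCODE on GRCm38, upstream sequences from RefSeq (GRCm38.p6). Some genes that this rule would name are not reported here.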

Additional observations from a re-analysis of the deposited data

Results flagged for a closer look

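Responses to anti-CD40 differed between sph/sph and WT mice for 3 erythroid genes, by the test of the difference itself. For Fech the interaction was 1.21 on the log2 scale and was called in all but 8 of 20 alternative settings. For Epb41 it was 1.15 and was not called in 16 of 20. For Epor it was 2.92 and was not called in 5 of 20. Without the 4 A libraries none of the 3 was called.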

How the results depend on the processing

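Under saline the number of the 27 erythroid genes called for genotype moved to 13 with limma-voom and 1 without the 4 A libraries; leaving out 1 library gave 7 to 33 (without WT saline B and without sph/sph anti-CD40 C). Under anti-CD40 leaving out 1 library gave 28 to 31 for 30. For anti-CD40 in sph/sph the count of 0 became 1 with DESeq2 and 0 to 2 without 1 library. In WT the count of 11 became 7 with limma-voom, 7 without the 4 A libraries and 8 to 13 without 1 library. For the interaction the count of 3 became 7 with DESeq2, 1 with limma-voom, 0 without the 4 A libraries and 0 to 5 without 1 library. No called member changed direction in any setting run. Over all genes the 282 saline calls became 831 with DESeq2, 891 with only the compared groups, 13 without the A libraries and 73 to 539 without 1 library; the 2455 anti-CD40 calls became 735 with only the compared groups, 1174 without the A libraries and 1355 to 3408 without 1 library. For anti-CD40 in sph/sph 108 became 1372 with DESeq2, 0 with only the compared groups, 0 without the A libraries and 0 to 2372; in WT 5420 became 2845 without the A libraries and 3841 to 6583; for the interaction 595 became 1393 with DESeq2, 153 without the A libraries and 259 to 944. The cause was not tested, except that fits without libraries have fewer samples. Summed levels without the haemoglobin genes were 1879 CPM in sph/sph saline, 2181 CPM in sph/sph anti-CD40 and 487.5 CPM in WT anti-CD40; without 1 library the sums of all 35 were 8570 to 9931 CPM in sph/sph saline, 410.8 to 564 CPM in WT saline, 10450 to 16720 CPM in sph/sph anti-CD40 and 536 to 620.6 CPM in WT anti-CD40. No paired analysis was possible because the table's columns carry no replicate number.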

Other observations

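Some eosinophil genes were higher in sph/sph preparations. Epx, eosinophil peroxidase, had 32.8, 5.996 and 2.50 CPM in sph/sph saline libraries, against 0.386, 0 and 0 CPM in WT saline libraries (log2 fold 6.76, adjusted p = 0.0346, edgeR), and 7.81, 23.8 and 28.2 CPM in sph/sph anti-CD40 libraries, against 0 to 0.0985 CPM in WT anti-CD40 libraries. Of the 13 eosinophil, basophil and mast cell genes tested, 2 rose under saline and 7 rose and 1 fell under anti-CD40. Among all genes tested 1.6% rose under saline, and 11.5% rose and 6.19% fell under anti-CD40. With anti-CD40 in WT 3 of the 13 fell and 1 rose, beside 19.7% and 19.4% of all genes tested. Ccr3, which rose in sph/sph in both treatments, fell in WT from a mean of 40.45 to 0.519 CPM. Siglecf, an eosinophil surface lectin, had 5.92, 3.98 and 4.02 CPM in sph/sph saline libraries, against 7.71, 5.93 and 6.10 CPM in WT saline libraries, and was not called there. Epx was highest in sph/sph saline A and anti-CD40 C. Of the erythroid regulators only Epor was highest in either of these libraries, in anti-CD40 C.

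Of 18 megakaryocyte and platelet genes, 0 were called under saline with edgeR and 2, Vwf and Gp5, rose under anti-CD40 in sph/sph. Since 11.5% of all genes tested rose under anti-CD40, 2 of 18 is not above the background. The median log2 fold of the 18 under saline was 2.77, and 12 were higher in every sph/sph saline library than in every WT saline library. Under anti-CD40 2 of the 18 were higher in every sph/sph library, and 16.7% of all genes tested were so in each treatment. Vwf, which endothelium also makes, had 124.5, 220.1 and 24.4 CPM in sph/sph saline libraries, against 6.81, 3.52 and 3.49 CPM in WT saline libraries. Pf4, a platelet chemokine, had 17.1, 23.1 and 22.4 CPM in sph/sph saline libraries, against 12.5, 21.3 and 29.0 CPM in WT saline libraries, which overlap (log2 fold -0.01, adjusted p = 1.0, edgeR). Itga2b, platelet integrin αIIb, was not called either (log2 fold 0.81, adjusted p = 0.746, edgeR).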
